A study of Mus musculus with 4 samples.

Results

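The genes described here are those named around 2 muscle super-enhancer RNAs, seRNA-1 on mouse chromosome 15 and seRNA-2 on chromosome 3. The set named Mb, Apol6, Myh9, Txn2, Foxred2, Eif3d, Ptgfrn, Cd58 and Igsf3, and an entry was taken when its identifier equalled the gene symbol. Of these 9 genes, 8 had an entry in each of the 4 libraries, 6 on chromosome 15 and 2 on chromosome 3, out of 24850 named entries in the total RNA tables and 24992 in the polyA tables. Cd58, which encodes a cell surface adhesion protein, had no entry in any of them and is not described further.

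The cells were C2C12, an established mouse myoblast line that fuses into myotubes when serum is withdrawn. Total RNA depleted of ribosomal RNA was sequenced from myoblasts (MB, -24 h relative to differentiation medium, DM) and from myotubes (MT, 72 h in DM). PolyA RNA was sequenced from cells kept 48 h in DM after transfection with a control siRNA (si-NC) or with an siRNA against hnRNPL (si-hnRNPL). No library carried an engineered allele or any other agent that the labels name. Each condition was 1 library, so no difference below has a replicate check and no test was run. Levels are FPKM, fragment counts scaled by transcript length and library size, with the 95% interval that Cufflinks attached to each value, which covers counting and assignment within a library only. The total RNA and polyA libraries differ in RNA selection, kit, time in DM and transfection, and are placed side by side but never in a ratio.

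Super-enhancers are clusters of enhancers with dense occupancy by transcription factors, and many are themselves transcribed into enhancer RNAs. hnRNPL is a nuclear RNA-binding protein best known for recognizing CA-rich RNA and for regulating splicing. Mb, near seRNA-1, encodes myoglobin, the oxygen-binding heme protein of striated muscle and a classical product of muscle differentiation. Igsf3, near seRNA-2, encodes an immunoglobulin superfamily membrane protein of the EWI family, as does Ptgfrn, whose product binds tetraspanins and restrains prostaglandin F receptor signaling.

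The sequences that place both enhancer RNAs on the genome were read from mm9, the build of the deposited coordinates, at the positions of the study's oligonucleotides. The primers used to clone seRNA-1 bounded chr15:76807320-76810620 on the plus strand, a span of 3301 bp, and those for seRNA-2 bounded chr3:101337669-101340364 on the minus strand, a span of 2696 bp. All 8 seRNA-1 oligonucleotides that were placed fell inside an assembled transcript unit of the total RNA tables, chr15:76807276-76810709. Of 6 placed for seRNA-2, 5 fell inside the unit chr3:101332580-101339210, which covered 57.2% of the cloned span and ended short of its 5′ primer. The first sequence below lies between the outer ends of both guides designed against the CAAA element of seRNA-1 (chr15:76807376-76807493, plus strand), with CAAA in capitals. The second surrounds the only CACACA of the seRNA-2 span (chr3:101337934-101338053, minus strand), with that hexamer in capitals, and is shown because an siRNA against seRNA-2 covers it.
seRNA-1 CAAA tract: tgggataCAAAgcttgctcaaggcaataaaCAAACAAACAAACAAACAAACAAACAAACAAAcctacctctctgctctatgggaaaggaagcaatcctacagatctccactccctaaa
seRNA-2 CACACA site: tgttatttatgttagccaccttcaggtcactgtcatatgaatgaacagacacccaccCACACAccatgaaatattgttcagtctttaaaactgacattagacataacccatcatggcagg
The seRNA-1 tract held 8 tandem copies of CAAA at chr15:76807406-76807437, and each guide was followed by AGG. CAAA occurred 25 times in the cloned seRNA-1 span and 24 times in that of seRNA-2, overlapping matches included, but the longest tandem run in seRNA-2 was 2 copies. CACACA occurred 23 times in the seRNA-1 span, against the single match in that of seRNA-2. Its longest tandem run in seRNA-1 was 8 copies, and overlapping matches within such a run are counted separately, so the 23 are not 23 separate sites. These counts cover genomic sequence between the cloning primers, introns included, and are not counts within the spliced RNAs.

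The distance from the cloned spans divided the genes into near and far. Mb (chr15:76845917-76881098, minus strand) lay with its 3′ end 35.3 kb from seRNA-1, and Apol6 (chr15:76875505-76887538, plus strand) began 64.9 kb from it. Their loci overlapped by 5594 bp on opposite strands. How strand was used in counting is not given in the sources used here, so reads from the shared stretch cannot be assigned with certainty to either gene. Myh9 (chr15:77591015-77672605) lay 780.4 kb from seRNA-1, Txn2 (chr15:77745481-77759424) 934.9 kb, Foxred2 (chr15:77770952-77787152) 960.3 kb and Eif3d (chr15:77789428-77801254) 978.8 kb, all on the minus strand. The word "around" therefore covers these 4 genes loosely. On chromosome 3, the nearer edge of Igsf3 (chr3:101181048-101266983, plus strand) lay 70.7 kb before the seRNA-2 span and that of Ptgfrn (chr3:100844159-100914089, minus strand) 423.6 kb before it.

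Facts of the libraries that bear on these genes were few. The intervals implied 59960176 fragments for MB and 54442655 for MT, and fewer for the polyA pair, 21341051 (si-NC) and 14592485 (si-hnRNPL). All 6 muscle lineage markers (Myod1, Des, Myog, Myh3, Ckm and Acta1) were higher in MT by more than log2 0.58, and all 3 proliferation markers (Mki67, Top2a and Ccnb1) were lower by more than that. Of 6 endothelial, leukocyte and epithelial markers, 5 were below 0.03 FPKM in both total RNA libraries, and Cd68 was 1.13 in MB and 0.774 in MT. Hnrnpl, the siRNA target, was 95.1 FPKM (92.7 to 97.5) in si-NC and 85.9 (83.1 to 88.7) in the library labelled si-hnRNPL, or 90.4% of control. In mRNA this is a small difference for a knockdown, and protein is not measured in these data. Every statement about hnRNPL below is a statement about the library that carries the label. A change is given as log2((FPKM + 1) ratio), with an interval that combines those of both FPKM values, and counts as higher or lower from an absolute value of 0.58, a ratio of 1.5. Adding 1 understates the change of weakly expressed genes. Over the 10791 named entries with at least 1 FPKM in MB and in MT the median change was -0.23, and -0.01 over the 11090 such entries of the polyA pair.

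Mb had the widest range of the set. Its FPKM was 0.0896 (0.00759 to 0.172) in MB, 93.8 (91.6 to 95.9) in MT, 9.39 (8.17 to 10.6) under si-NC and 9.72 (8.17 to 11.3) under si-hnRNPL. The MB value was nearly absent, corresponding to about 4.77 fragments, and the MT value exceeded 97.9% of named entries. Apol6, a member of the apolipoprotein L family, which is known for lipid binding and links to innate immunity, was low throughout. Its FPKM was 0.276 (0.181 to 0.371) in MB, 1.05 (0.894 to 1.21) in MT, 0.607 (0.417 to 0.796) under si-NC and 0.796 (0.523 to 1.07) under si-hnRNPL. The intervals of MB and MT did not overlap, while those of both polyA libraries did.

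The 4 distant genes of chromosome 15 are broadly expressed genes, and all but Foxred2 were abundant. Myh9, which encodes the heavy chain of non-muscle myosin IIA, was 208 FPKM (207 to 209) in MB, 140 (139 to 141) in MT, 241 (239 to 243) under si-NC and 235 (233 to 238) under si-hnRNPL. Txn2, mitochondrial thioredoxin, was 83.6 (81.7 to 85.4) in MB, 40.6 (39.3 to 41.9) in MT, 88.8 (85.7 to 91.9) under si-NC and 91.6 (87.7 to 95.6) under si-hnRNPL. Eif3d, a subunit of the translation initiation factor eIF3 that can bind the mRNA cap, was 159 (157 to 161) in MB, 101 (99.0 to 102) in MT, 110 (108 to 113) under si-NC and 119.9 (116 to 123) under si-hnRNPL. All 3 were lower in MT than in MB with intervals apart. Foxred2, which encodes an endoplasmic reticulum flavoprotein linked to degradation of misfolded proteins, went the other way, with 3.02 (2.85 to 3.20) in MB, 5.22 (4.99 to 5.46) in MT, 4.96 (4.56 to 5.36) under si-NC and 5.95 (5.41 to 6.48) under si-hnRNPL.

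Both chromosome 3 genes were higher in MT. Ptgfrn was 34.9 FPKM (34.3 to 35.4) in MB, 75.6 (74.8 to 76.4) in MT, 85.6 (84.2 to 86.9) under si-NC and 85.9 (84.3 to 87.6) under si-hnRNPL. Igsf3 was 6.68 (6.46 to 6.89) in MB, 15.4 (15.1 to 15.7) in MT, 11.0 (10.6 to 11.4) under si-NC and 11.4 (10.9 to 12.0) under si-hnRNPL. Neither gene separated the polyA libraries.

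**Figure D1:**
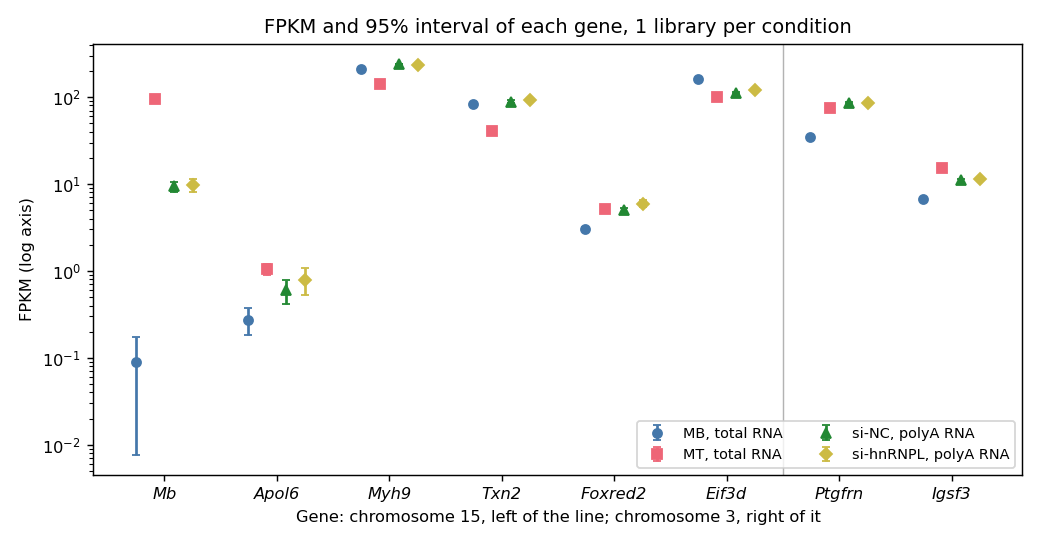
FPKM of the 8 genes (log axis) in MB and MT total RNA and in si-NC and si-hnRNPL polyA RNA, with the Cufflinks 95% interval as bars and 1 library per condition; the vertical line parts chromosome 15 from chromosome 3. Mb spans from 0.0896 FPKM in MB to 93.8 in MT, whereas the polyA pair lies close together for every gene.

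FPKM is scaled by transcript length, so the genes can be ordered within a library. In MB the order was Myh9, Eif3d, Txn2, Ptgfrn, Igsf3, Foxred2, Apol6 and Mb, with no overlap between the intervals of neighbors. In MT it was Myh9, Eif3d, Mb, Ptgfrn, Txn2, Igsf3, Foxred2 and Apol6, again without overlap, so that Mb moved from the last place to the third. In si-NC the order was Myh9, Eif3d, Txn2, Ptgfrn, Igsf3, Mb, Foxred2 and Apol6, and the intervals of Txn2 and Ptgfrn and those of Igsf3 and Mb overlapped. The order in si-hnRNPL was that of si-NC, where only Igsf3 and Mb overlapped. Side by side, Mb was 93.8 FPKM in MT total RNA and 9.39 in si-NC polyA RNA, while Myh3, embryonic myosin heavy chain, was 120.8 and 162 and Ckm, muscle creatine kinase, 66.3 and 45.0 in the same libraries. RNA selection, time in DM and transfection cannot be told apart in these values.

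The comparison of MT with MB asks how the genes near these enhancer RNAs behave in differentiation. Of the 8 genes, 5 were higher in MT (Mb, Apol6, Foxred2, Ptgfrn and Igsf3), 2 were lower (Txn2 and Eif3d) and Myh9 lay just inside the threshold. Over all named entries 7.81% were higher and 13.7% lower, and the 8 genes are a chosen list, so these counts describe the set and no more. Both libraries listed 6226 entries at 0. Among the 11816 entries with at least 1 FPKM in either, 15.4% were higher and 28.6% lower. The median change of the 8 genes was 0.66, against -0.20 over those entries.

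Mb changed by log2 6.44 (6.33 to 6.56), and 13 of the 24850 entries changed by more. As a plain ratio of FPKM this was 1047, with bounds of 534 and 12638 that show how little the MB value fixes it. Apol6 changed by 0.69 (0.53 to 0.84), an interval that reached below the threshold, and its plain ratio was 3.82 (2.41 to 6.69). Igsf3 changed by 1.10 (1.05 to 1.15) and Ptgfrn by 1.09 (1.07 to 1.12), with ratios of 2.31 and 2.17. These 2 genes, which belong to the same protein family and lie within the same stretch of chromosome 3, had changes whose intervals overlapped.

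Of the genes far from seRNA-1, Txn2 changed by -1.02 (-1.08 to -0.97) and reached 48.6% of its MB level. Eif3d changed by -0.66 (-0.69 to -0.63) and reached 63.2%. Myh9 changed by -0.57 (-0.58 to -0.55) and reached 67.4%, below the threshold for a call. Foxred2, which lies between Txn2 and Eif3d on the same strand, changed by 0.63 (0.55 to 0.71), so direct neighbors on the chromosome moved in opposite directions. The 5 rises stayed past the threshold under every scaling and pseudocount run, but the falls depended on scaling. When FPKM was rescaled to the same sum over named entries, Txn2 became 0.03, Eif3d 0.40 and Myh9 0.50. In MB 29.4% of that sum was the microRNA entry Mir3113 and 8.74% Mir5098, both listed at 0 in MT, and without them the changes were -0.65, -0.28 and -0.19. Relative to the median change of -0.23, Eif3d fell below the threshold, with -0.43, and Txn2 stayed past it, with -0.80.

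**Figure D2:**
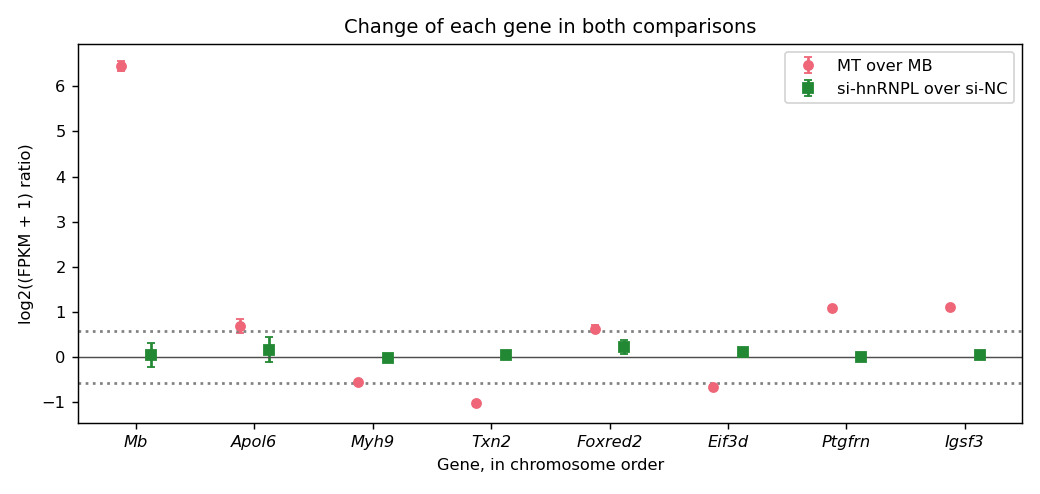
Change of the 8 genes as log2((FPKM + 1) ratio), in chromosome order, for MT over MB (circles) and si-hnRNPL over si-NC (squares), with intervals combined from both libraries and dotted lines at ±0.58. Mb stands at 6.44 in MT over MB, and all squares lie between -0.03 and 0.22.

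**Figure D3:**
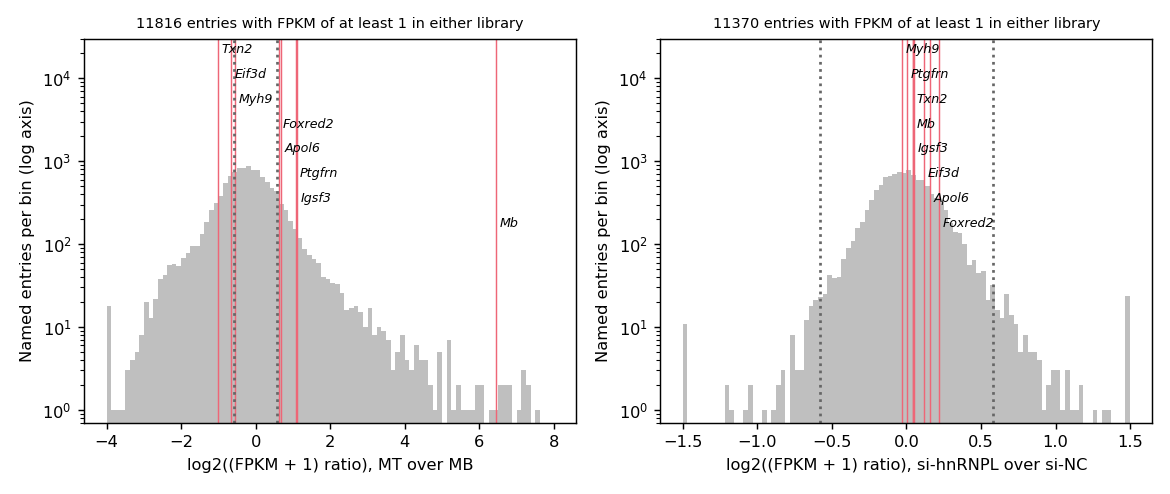
Number of named entries per bin (log axis) by log2((FPKM + 1) ratio), for entries with at least 1 FPKM in either library, with the 8 genes as red lines, the threshold as dotted lines and values beyond the axis gathered in the end bins. In MT over MB the genes lie on both sides of the bulk and Mb at its far right, whereas in si-hnRNPL over si-NC all 8 fall within the bulk. Apol6 is below 1 FPKM in both polyA libraries, so in that panel its line is drawn over entries that do not include it.

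The windows reached 150 kb beyond the stretch from Mb to Apol6 and beyond that from Ptgfrn to Igsf3, and held 17 named genes reported here, of which 13 were outside the set. Of those 13, 1 was higher in MT, 4 were lower and 8 were neither, with a median change of -0.19. The gene that was higher was 1700109K24Rik, which lies inside the Rbfox2 locus and read 2.88 FPKM in MB and 5.15 in MT (0.67). Zfp7, a zinc finger gene, fell from 13.5 FPKM to 4.80 (-1.33). The ribosomal protein gene Rpl8 fell from 675 to 396 (-0.77), and Zfp647, another zinc finger gene, from 4.78 to 2.74 (-0.63). On chromosome 3, Ttf2, a transcription termination factor, fell from 14.3 to 4.93 (-1.37). Under the rescaling to equal sums none of these 13 was lower by the threshold.

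Genes for which the study designed primers but which did not pass the threshold lay on both sides of seRNA-1. Zfp251 was 13.2 FPKM in MB and 13.8 in MT (0.07), and Commd5, a COMM domain gene, was 23.6 and 19.5 (-0.26). Rbfox2, which encodes a splicing regulator and starts beyond Apol6, was 41.6 and 56.0 (0.42). Cd2, a T-cell adhesion receptor between Ptgfrn and Igsf3, was listed at 0 in all libraries.

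Assembled transcript units, which carry no gene symbol and appear only in the total RNA tables, were examined in the same windows. The unit over seRNA-1 was listed at 0 in MB and had 1.40 FPKM (1.20 to 1.60) in MT, from about 192 fragments. The unit over seRNA-2 was listed at 0 in MB and had 1.59 FPKM (1.48 to 1.70) in MT, from about 892 fragments. No fold is given against a value listed at 0. The paper selected both enhancer RNAs for their strong induction in differentiation, so their rise here is not an independent finding. The windows held 48 units, of which 44 were higher in MT by any amount, 16 passed the threshold upward and 0 downward. Over all 36780 units 79.3% were higher by any amount, 19.8% passed upward and 3.09% downward. Of the 16 units, 11 lay inside named loci, 10 of them in Rbfox2. Outside named loci 5 of 29 passed upward, or 17.2%, which is no more than over all units, and all 29 were higher by any amount. Their median MT level was 0.315 FPKM, against 0.472 over all units. At that level, adding 1 keeps even a unit at 0 in MB below the threshold, so the share that passed depends on level.

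The units between the genes were mostly detected in MT alone. Of 9 units between 1110038F14Rik and Mb, 8 were listed at 0 in MB, and all 9 were detected in MT at 0.142 to 1.72 FPKM. Of 13 units in the window beyond Igsf3, which holds seRNA-2, 10 were listed at 0 in MB, and all 13 were detected in MT at 0.176 to 1.59 FPKM. Of all assembled units in these libraries, 6.63% were listed at 0 in MB, a share over units of every level. The paper describes assembling transcripts from RNA-seq depleted of ribosomal RNA in MB and MT. A unit of that assembly at 0 in MB would be listed through its MT reads, so its detection in MT is no separate result. Between 9 and 892 fragments stood behind the MT values of the chromosome 3 units, so the weakest rest on few reads. Inside the locus of Igsf3, 1 unit was listed at 0 in MB and had 2.94 FPKM in MT from about 13 fragments.

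Units inside the gene loci varied. Of 10 units inside Rbfox2 all 10 passed the threshold upward, with a median change of 1.33 against 0.42 for the Rbfox2 entry itself. The largest change among them was 2.50, from 0.496 to 7.44 FPKM. The 4 units within the Mb locus read between 0.178 and 0.266 FPKM in MT and 3 of them were lower than in MB, while the Mb entry was 93.8.

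**Figure D4:**
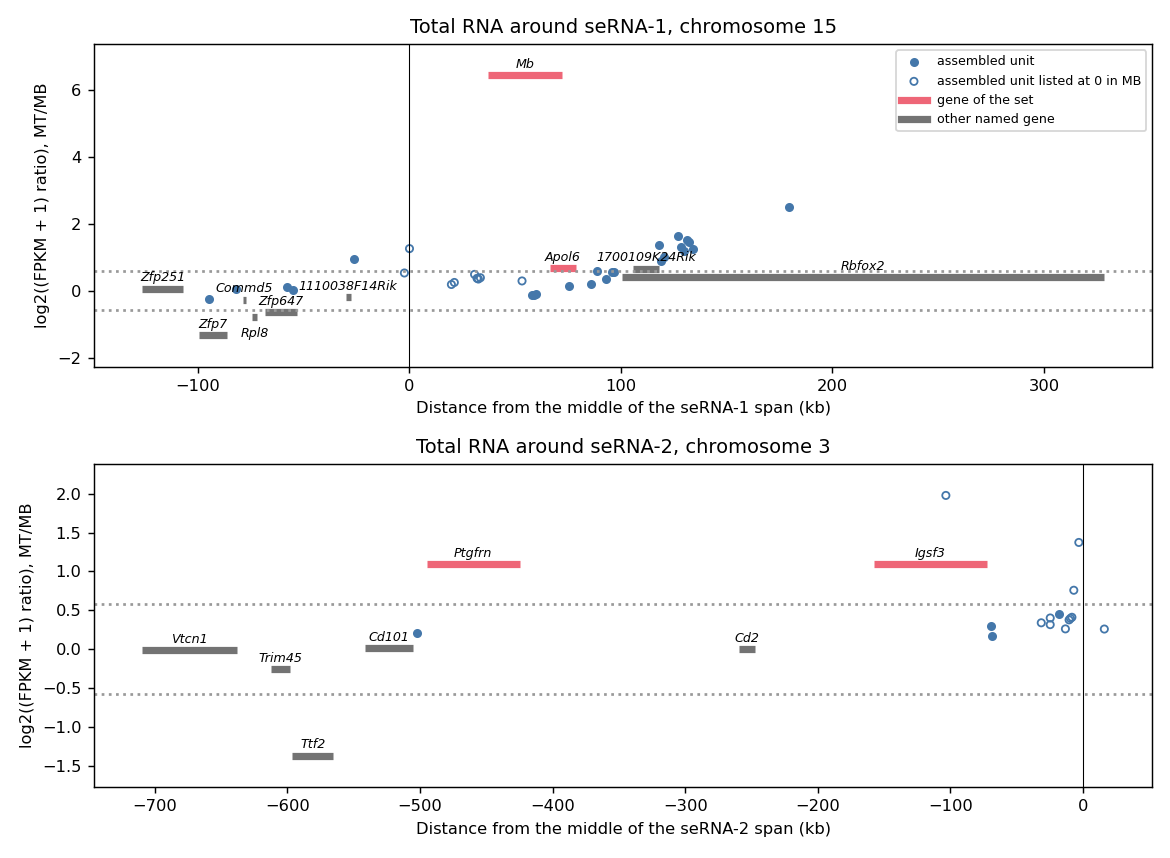
Change in total RNA, as log2((FPKM + 1) ratio) of MT over MB, against distance in kb from the middle of the cloned seRNA-1 span (top) and seRNA-2 span (bottom), with genes as bars over their loci, red for genes of the set, and assembled units as points, open where listed at 0 in MB. Mb stands alone at 6.44, and most other named genes lie near or below 0. Units around both spans lie above 0, as did 79.3% of all assembled units. A unit at 0 in MB would be listed through its MT reads, so its place above 0 is no separate result.

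The comparison of si-hnRNPL with si-NC showed no gene of the set past the threshold. Hnrnpl mRNA stood at 90.4% of control in this pair, which holds no measure of hnRNPL protein. The paper examined the knockdown by Western blot. Whether these genes depend on hnRNPL was not tested here. In the paper, hnRNPL siRNA reduced Mb and Apol6 but not Igsf3 by qRT-PCR, and reduced Mb transcription in a nuclear run-on assay. The study lists the same siRNA for that assay and for RNA-seq. Of the 8 genes 0 were higher and 0 lower, where 0.688% of all named entries were higher and 0.416% lower, so few genes of any kind passed. The changes ran from -0.03 to 0.22, with a median of 0.05. Mb changed by 0.05 (-0.22 to 0.31) and Apol6 by 0.16 (-0.12 to 0.44). About 235 fragments (si-NC) and 158 (si-hnRNPL) stood behind the Mb values, and about 41 and 34 behind those of Apol6, so their intervals leave room for changes of the size of the bounds given. Igsf3 changed by 0.05 (-0.03 to 0.13) and Ptgfrn by 0.01 (-0.03 to 0.04), with narrower bounds and more fragments. Rescaling to equal sums turned the sign of 4 genes, to -0.06 for Mb, -0.07 for Txn2, -0.11 for Ptgfrn and -0.06 for Igsf3, without bringing any past the threshold.

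Among the distant genes, Foxred2 changed by 0.22 (0.07 to 0.37), Eif3d by 0.12 (0.06 to 0.17), Txn2 by 0.04 (-0.03 to 0.12) and Myh9 by -0.03 (-0.05 to -0.01). For Foxred2, Eif3d and Myh9 the FPKM intervals of the libraries did not overlap. These intervals hold no spread between cultures, and the SD of the change over the 11090 entries with at least 1 FPKM in both was 0.23, as large as the largest of them. None of the 13 neighbors passed the threshold, their changes running from -0.22 to 0.25. Rpl8 was 884 FPKM under si-NC and 1042 under si-hnRNPL, Zfp647 3.42 and 3.59, Commd5 24.7 and 26.4, and Zfp7 5.19 and 4.75. Zfp251 was 10.7 and 11.0, and Rbfox2 60.3 and 56.9. The polyA tables list no assembled units, so the enhancer RNAs themselves are not analysed in this pair.

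Other differences accompanied the label. Ckm was 45.0 FPKM under si-NC and 74.3 under si-hnRNPL (0.71), and Acta1, skeletal alpha-actin, was 1009 and 1537 (0.61). The other 4 muscle markers changed by 0.17 to 0.51. Top2a was 64.3 and 42.2 (-0.60) and Mki67 24.3 and 15.5 (-0.62). Mb did not show a rise of that size, and the part of these markers in the values of the set was not tested.

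Relatives of each gene were taken from lists of protein families and partners. Among 7 globins, with 9 entries, Mb alone was higher in MT and 2 alpha-globin entries were lower, with a list median of 0. Those entries, Hba-a2 at 2.96 and 0.709 FPKM (-1.21) and Hba-a1 at 1.56 and 0.0000207 (-1.35), come from near-identical gene copies that share reads and are uncertain. Cygb, cytoglobin, was 0.172 and 0.414 FPKM, and Hbb-b1 and Hbb-b2 were listed at 0. No other globin entry came near the MT level of Mb.

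Of 13 apolipoprotein L genes with an entry in the total RNA tables, Apol6 was the only one higher in MT. Apol10b (9.42 to 3.27 FPKM, -1.29) and Apol9a (10.3 to 5.16, -0.87) were lower, and Apol9b was 12.96 and 8.89 (-0.50). The list median was -0.01. Apol9a and Apol9b are close copies, whose reads may be divided uncertainly.

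Myh9 was itself the middle value of the non-muscle myosin II list, so the median of -0.57 over its 7 genes is the change of Myh9. Myh10, the IIB heavy chain, changed by -1.21 (24.2 to 9.86 FPKM), the light chain gene Myl6 by -0.84 (612 to 341) and Myl9 by -0.60 (201 to 132), so 3 were lower and 0 higher. Myl12a was 202 and 190 (-0.09), Myl12b 100.2 and 123 (0.30), and Myh14 was below 0.04 FPKM in both.

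In the thioredoxin system 4 of 7 genes were lower in MT and 1 higher. Txn2 was accompanied by the cytosolic Txn1 (219 to 89.8 FPKM, -1.28), the cytosolic reductase Txnrd1 (104.9 to 46.0, -1.17) and the mitochondrial peroxiredoxin Prdx3 (91.0 to 56.4, -0.68). Txnip, an inhibitor of thioredoxin, was higher (9.0 to 47.7, 2.28). Txnrd2, the mitochondrial reductase, was 7.37 and 4.97 (-0.49) and Prdx5 114 and 110.6 (-0.05).

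Of 14 eIF3 subunit genes with an entry, 6 were lower in MT and 0 higher, with a median of -0.50 and a range from -1.18 to -0.0017. Besides Eif3d these were Eif3b (64.6 to 27.9 FPKM, -1.18), Eif3g (119.4 to 57.9, -1.03), Eif3i (174 to 98.1, -0.82), Eif3l (180.0 to 105.6, -0.76) and Eif3k (125.6 to 81.9, -0.61). Eif3e (164 to 153, -0.10) and Eif3h (162 to 123, -0.40) were as abundant and did not pass. Eif3d was thus the fifth largest fall of the list. Of the 8 genes of endoplasmic reticulum degradation, 3 were higher and 0 lower, namely Foxred2 and the lectins Os9 (15.2 to 27.9, 0.84) and Erlec1 (3.85 to 6.44, 0.62). The ATPase Vcp was 184 and 137 (-0.42) and Derl1 44.6 and 53.8 (0.27).

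Igsf3 and Ptgfrn were set beside their family and its tetraspanin partners. Of 7 genes 3 were higher, these 2 and the tetraspanin Cd82 (43.1 to 144 FPKM, 1.72). Igsf8, another EWI protein, was lower (21.8 to 13.3, -0.67), Cd101 was below 0.03 in both, Cd81 was 144 and 172 (0.26) and Cd9 151 and 147 (-0.05). The 3 genes listed with the symbol Cd58, namely Cd2, Cd48 and Cd244, were at or below 0.05 FPKM in all 4 libraries. In si-hnRNPL over si-NC no gene of any of these lists of relatives passed the threshold, and the list medians ran from -0.01 to 0.13.

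**Figure D5:**
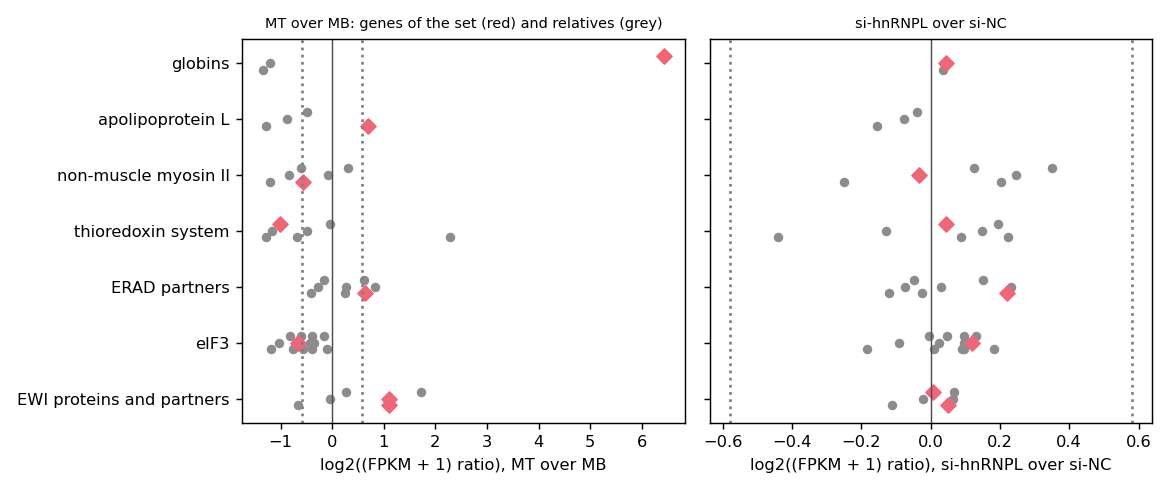
Change of the genes of the set (red diamonds) and of their relatives (grey points) as log2((FPKM + 1) ratio), by list, for entries with at least 1 FPKM in either library, MT over MB at left and si-hnRNPL over si-NC at right, with dotted lines at ±0.58. At left, Myh9, Txn2 and Eif3d lie among relatives mostly below 0, with Myl12b (0.30) and Txnip (2.28) above it. Over all entries at this filter 28.6% were lower in MT by the threshold. The falls of the set depended on scaling, and the relatives are shown as reported only. Mb and Apol6 lie apart from their relatives at left. Apol6 is below 1 FPKM in both polyA libraries and so absent at right.

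Genes with the pattern closest to that of Mb and of Apol6 were sought by the distance between pairs of changes, MT over MB and si-hnRNPL over si-NC. The search covered other entries with at least 1 FPKM in MT and in si-NC, 10509 for Mb and 10510 for Apol6. Apol6 itself, at 0.607 FPKM in si-NC, lies below that filter. Each pair comes from 4 libraries, which the genes share. For Mb the nearest were Casq2, Myh3, Tnni2, Actc1 and Tnnt1, at distances of 0.33, 0.47, 0.53, 0.55 and 0.60, all of them genes of the contractile or calcium-storage apparatus of muscle. Casq2, calsequestrin, was 0.261 FPKM in MB, 115 in MT, 133 in si-NC and 171 in si-hnRNPL. All 5 changed by 0.36 to 0.55 in si-hnRNPL over si-NC, where Mb changed by 0.05, so the likeness came from the MT over MB axis. For Apol6 the nearest were Rps19-ps3, Arl6ip5, Aga, Slc2a8 and Smim14, at distances of at most 0.0151, at levels of 2.38 to 110 FPKM in MB. Apol6 lies where entries are dense, and such closeness sets it apart little.

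Promoter sequences were taken from RefSeq windows on GRCm38.p6, another build than that of the loci above, reaching from 250 bases before to 50 after a start site. Of the 8 genes 7 had a window, and Apol6 had none. Each window was searched for the E-box CAGCTG, which reads the same on both strands and belongs to the sequences that MyoD family factors are known to bind. It was present in 16.3% of all 32851 windows and in 3 of the 9 windows of the 7 genes, which were 2 of the 3 Mb windows and the Igsf3 window. Both Mb windows with the motif overlap and hold the same site, and the third, at chr15:77050619-77050918, held none. The Igsf3 window and 1 of the Mb windows are printed with CAGCTG in capitals, Mb at chr15:77022678-77022977 on the minus strand and Igsf3 at chr3:101376875-101377174 on the plus strand.
Mb promoter: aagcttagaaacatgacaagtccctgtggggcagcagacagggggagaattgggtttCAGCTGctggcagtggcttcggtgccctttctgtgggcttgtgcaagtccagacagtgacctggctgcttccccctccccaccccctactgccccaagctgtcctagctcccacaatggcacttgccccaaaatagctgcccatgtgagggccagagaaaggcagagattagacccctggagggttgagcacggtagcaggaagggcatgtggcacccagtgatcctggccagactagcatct
Igsf3 promoter: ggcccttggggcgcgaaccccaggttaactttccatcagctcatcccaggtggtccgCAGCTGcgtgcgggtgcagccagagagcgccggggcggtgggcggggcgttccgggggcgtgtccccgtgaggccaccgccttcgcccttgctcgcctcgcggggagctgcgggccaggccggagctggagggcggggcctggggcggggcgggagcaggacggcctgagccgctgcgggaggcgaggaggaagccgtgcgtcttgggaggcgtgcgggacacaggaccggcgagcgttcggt
A match describes the letters of the window and shows no binding. The windows of Ptgfrn and Foxred2, which were also higher in MT, and those of Txn2, Eif3d and Myh9 held no CAGCTG.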

How the data were processed

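Total RNA of MB and MT and polyA RNA of si-NC and si-hnRNPL cells were sequenced, 1 library each. The authors mapped reads to mm9 with TopHat, estimated abundance with Cufflinks and deposited FPKM values with a 95% interval and a locus. How strand entered the counting is not given in the sources used here. Entries were matched by identifier and locus. The change of an entry was the log2 ratio of FPKM after adding 1, computed with Python 3.11.15, numpy 2.4.6 and pandas 2.3.3, and called at 0.58. Interval half-widths were combined in quadrature, and the fragments behind a value were taken as (2 × FPKM / (upper bound - FPKM)) squared. The calculation was tested on simulated data. With 1 library per condition no p-value is given. FPKM keeps no read count, so precision rests on these intervals. Named genes were the set, neighbors within 150 kb past the threshold or with study primers, relatives past it or among the 3 highest of a list, and the 5 nearest patterns. The genes, lists and windows were chosen with earlier results of these data known. Oligonucleotides were placed on mm9 by exact match. Alternatives covered the pseudocount, centring, rescaling, threshold, filter and window. Columns with other content were not used. In the windows 1 gene is not reported here.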

Additional observations from a re-analysis of the deposited data

How the results depend on the processing

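Of 40 alternative values for the 8 genes in MT over MB, 8 stayed within the interval of the reported change and the others moved beyond it, and for si-hnRNPL over si-NC 27 of 32 stayed and 5 moved. The median change of the set in MT over MB, 0.66 as reported, was 0.94 and 0.95 with pseudocounts of 0.1 and 0.01, 0.88 after centring, 1.45 after rescaling to equal sums and 0.92 after rescaling without Mir3113 and Mir5098, an alternative chosen after seeing the data. In si-hnRNPL over si-NC it went from 0.05 to -0.059 on rescaling. In MT over MB 3 genes turned sign, all under rescaling to equal sums, namely Txn2 (0.028) and Eif3d (0.40), which were past the threshold as reported, and Myh9 (0.50), which was not. Under the same rescaling 4 genes turned sign in si-hnRNPL over si-NC, with values from -0.11 to -0.06. In the total RNA pair the summed FPKM of MB exceeded that of MT. The 2 genes of the set that were lower became 1 after centring, 1 after rescaling without both microRNA entries, 0 after full rescaling and 1 at a threshold of log2 1. The 5 that were higher became 3 at log2 1 and 3 when at least 1 FPKM was required in both libraries, since that filter leaves out Mb and Apol6. Of the 17 genes in the windows, 5 were higher and 4 lower as reported. These counts became 9 and 0 after full rescaling, 3 and 2 at log2 1, and 3 and 4 under the filter. After centring, and after rescaling without the microRNA entries, they were 6 and 2. Wider windows hold more genes. Windows of 500 kb held 45, of which 6 were higher and 8 lower. Those of 1000 kb held 95, of which 14 were higher and 17 lower. Over all named entries 7.81% were higher and 13.7% lower. In si-hnRNPL over si-NC, 1 window gene, Vtcn1, at or below 0.012 FPKM, became lower with a pseudocount of 0.01. In windows of 1000 kb 1 of 94 genes was higher. A pseudocount of 0.1 raised the assembled units that were higher from 16 to 41 and those that were lower from 0 to 1. No other alternative changed a count by more than 1.5 times. With 1 library per condition no replicate could be left out, and no paired analysis was possible because each group holds 1 sample. Weak values, such as Mb in MB and Apol6 in all libraries, are limited by few fragments.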
